A study of Mus musculus with 6 samples.

Results

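The RANKL axis and the genes that mark osteoclasts were followed in synovial fibroblasts (SFs) treated with amisulpride. The 10 genes, chosen by name for their known roles, were Tnfsf11, Tnfrsf11b, Tnfrsf11a, Nfatc1, Oscar, Dcstamp, Ocstamp, Atp6v0d2, Acp5 and Ctsk, of 49548 genes in the table. They and the gene lists below were chosen with earlier results of these data known. Of the 10 genes, 9 passed a filter on low values and Oscar did not. The filter asked for 10 or more normalised counts in 3 or more of the 6 libraries. SFs were cultured from ankle joints of 8-week-old hTNFtg mice on a mixed CBA and C57BL/6J background. hTNFtg animals express a human TNF transgene and develop an inflammatory, erosive arthritis, and treated and control cells both carried it, with no cells free of the transgene in the comparison. Control SFs (untreated, n = 3) were compared with SFs given 500 μM amisulpride, an antipsychotic that blocks dopamine receptors, for 48 hours (n = 3). The study's methods describe removal of CD45+ cells, the leukocytes, at passage 1, and say nothing of how many animals gave each culture.

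RANKL, the product of Tnfsf11, is the cytokine that turns myeloid precursors into osteoclasts, the multinucleated cells that resorb bone. It binds RANK (Tnfrsf11a) on the precursor, and osteoprotegerin (Tnfrsf11b) is a secreted decoy that captures RANKL before it reaches RANK. Signals from RANK, together with co-receptors such as OSCAR, switch on NFATc1, the transcription factor that drives the genes for cell fusion (Dcstamp, Ocstamp, Atp6v0d2) and for bone resorption (Acp5, Ctsk). In the arthritic joint, SFs are a known source of RANKL, whereas the fusion and resorption genes are best known from the osteoclast lineage. Ctsk is also made by activated fibroblasts and Acp5 by macrophages.

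Promoter windows are shown for the ligand and for the pair of resorption genes, because NFATc1 is known to act on the resorption genes through short NFAT sites. Each window runs from 250 bases before to 50 after a RefSeq transcript start in build GRCm38.p6 and is written 5′ to 3′ on the strand of the gene. Capitals mark the NFAT core GGAAA, read on either strand, so that TTTCC is the same core on the other strand.
Tnfsf11, chr14:78307994-78308293, minus strand: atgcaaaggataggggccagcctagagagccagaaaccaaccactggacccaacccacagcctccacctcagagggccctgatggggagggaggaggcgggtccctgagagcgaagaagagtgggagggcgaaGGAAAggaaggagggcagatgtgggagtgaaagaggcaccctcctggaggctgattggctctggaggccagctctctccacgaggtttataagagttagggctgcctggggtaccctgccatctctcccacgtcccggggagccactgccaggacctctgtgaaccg
Acp5, upstream start, chr9:22135697-22135996, minus strand: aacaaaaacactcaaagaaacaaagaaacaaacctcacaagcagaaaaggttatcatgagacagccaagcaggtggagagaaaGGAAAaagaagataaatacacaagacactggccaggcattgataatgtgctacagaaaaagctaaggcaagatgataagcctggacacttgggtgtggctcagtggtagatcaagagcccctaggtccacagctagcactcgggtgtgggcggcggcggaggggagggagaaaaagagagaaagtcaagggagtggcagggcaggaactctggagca
Acp5, middle start, chr9:22131816-22132115, minus strand: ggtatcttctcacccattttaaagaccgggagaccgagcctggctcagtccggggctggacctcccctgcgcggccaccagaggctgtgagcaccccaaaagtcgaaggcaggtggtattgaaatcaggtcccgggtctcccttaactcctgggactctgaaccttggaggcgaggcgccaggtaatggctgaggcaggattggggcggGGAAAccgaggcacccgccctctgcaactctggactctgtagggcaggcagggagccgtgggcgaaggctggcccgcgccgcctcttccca
Acp5, downstream start, chr9:22130549-22130848, minus strand: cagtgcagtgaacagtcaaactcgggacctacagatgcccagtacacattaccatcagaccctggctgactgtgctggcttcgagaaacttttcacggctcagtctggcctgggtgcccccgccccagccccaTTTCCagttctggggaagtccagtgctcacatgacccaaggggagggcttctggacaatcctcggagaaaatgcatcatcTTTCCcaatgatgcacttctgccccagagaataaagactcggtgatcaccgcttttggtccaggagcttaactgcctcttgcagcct
Ctsk, chr3:95498960-95499259, plus strand: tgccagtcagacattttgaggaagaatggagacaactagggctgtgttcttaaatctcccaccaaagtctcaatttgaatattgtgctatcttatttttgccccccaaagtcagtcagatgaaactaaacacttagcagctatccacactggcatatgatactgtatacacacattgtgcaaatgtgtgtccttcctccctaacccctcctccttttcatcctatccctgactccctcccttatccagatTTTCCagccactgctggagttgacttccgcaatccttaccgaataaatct

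The RefSeq table held 7 such windows for 5 of the 10 genes (Tnfsf11, Tnfrsf11a, Acp5, Ctsk and Oscar), with chromosome 18, which carries Nfatc1, left out. The NFAT core occurred once in the Tnfsf11 window, once, once and 2 times in the 3 Acp5 windows, once in the Ctsk window, 4 times in that of Oscar and not in that of Tnfrsf11a. It was present in 61.3% of the 32851 windows of this length. The AP-1 sequence TGANTCA was in none of the 7 windows and in 7.81% of all windows. The PU.1 core GAGGAA, which can overlap the NFAT core, was found 2 times each in the Ctsk and Oscar windows and in 28.3% of all windows. The E-box CANGTG, the kind of site bound by MITF, was found in all 3 Acp5 windows and in those of Tnfrsf11a and Oscar, but not in those of Tnfsf11 or Ctsk, against 44.9% of all windows. These are matches of letters and not evidence of binding.

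The libraries summed to 3832980 to 4504242 normalised counts each. The size of 1 read on that scale gave 2.52 to 4.71 M reads for 5 libraries and could not be resolved for untreated replicate 1. A count of 0 allows up to 3 reads, which corresponded to 2.5 to 5.37 normalised counts in those 5 libraries, and this floor covers counting error only. Amisulpride replicate 3, the shallowest of the 5, stood apart on the first principal component (37.1% of the variance) at 73.9, with the others between -38.2 and 10.4. All 12 fibroblast markers on the list passed the filter. Their summed level was 31489 to 52836 in untreated and 43835 to 78146 in amisulpride-treated SFs. Passing the filter does not tell cell types apart, since 15 of 16 macrophage and osteoclast precursor markers passed it too.

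All 9 of the genes that could be tested had a lower mean log2 value in treated than in untreated SFs, with a median log2 fold change of -0.89. Over all 12614 genes tested, 49.9% had a log2 fold change under 0 and the median was 0.00. Acp5, Dcstamp and Tnfrsf11b passed the thresholds used by the study, a log2 fold change of 1 or more in size together with an unadjusted p under 0.05, which 3.01% of all genes passed in the lower and 2.69% in the higher direction. None of the 9 passed an adjusted p of 0.05 in limma with Benjamini-Hochberg adjustment, a threshold that 0.285% of all genes passed, and 3 had an unadjusted p under 0.05, as did 10.9% of all genes. For Tnfsf11, Tnfrsf11b, Tnfrsf11a, Dcstamp and Ocstamp the treated libraries alone would not have met the filter, so the number of genes with negative values is partly set by it.

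**Figure D1:**
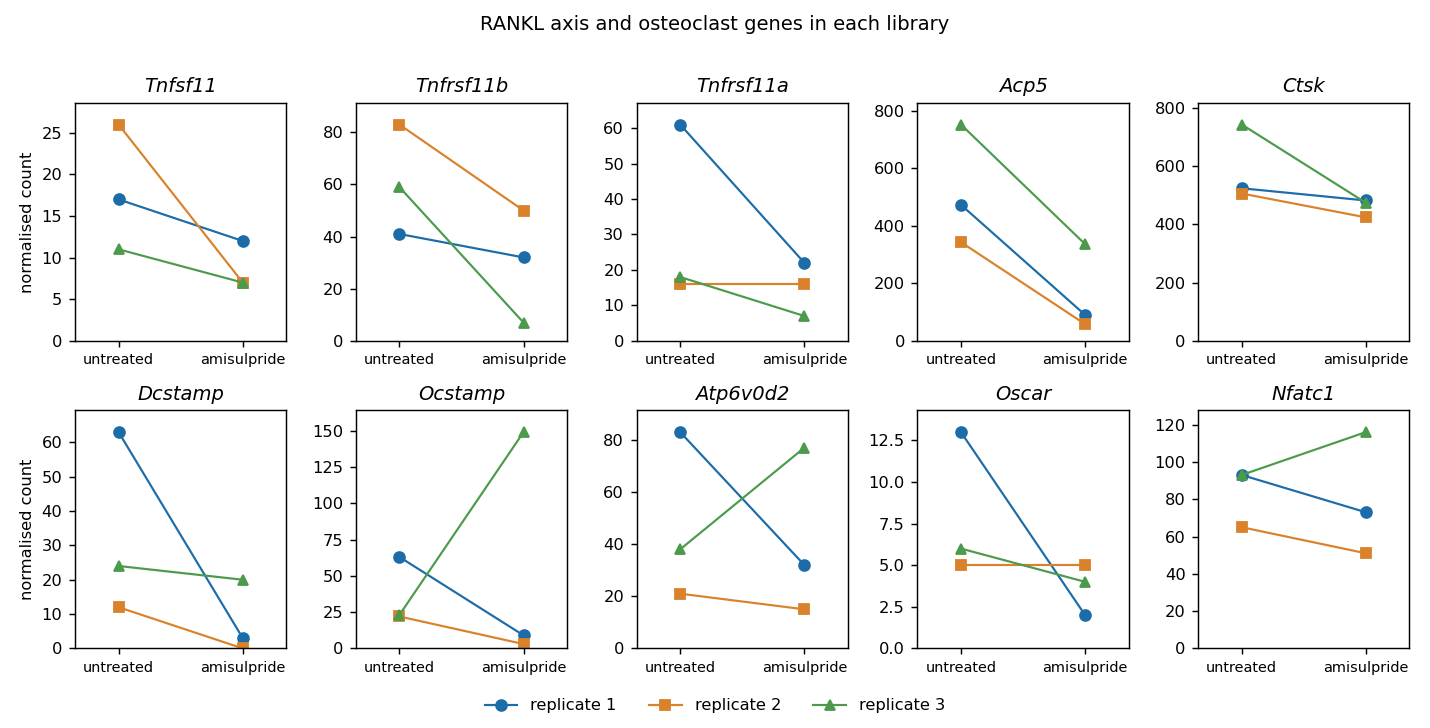
Normalised count (y axis, linear scale from 0 in each panel) of each of the 10 genes in untreated and amisulpride-treated SFs, with 1 point per library and lines joining libraries of the same replicate number. All 3 treated points lie below all 3 untreated points for Acp5 and Ctsk, and for Ocstamp replicate 3 goes up to 149 while the other two go down.

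The ligand gene Tnfsf11 (ENSMUSG00000022015, chr14:78277445-78308043, minus strand), whose promoter is shown above, was found at normalised counts of 17, 26 and 11 in untreated replicates 1, 2 and 3 and of 12, 7 and 7 in amisulpride replicates 1, 2 and 3. The treated library at 12 lay above the lowest untreated library at 11, so the groups overlapped. The mean was 18 ± 7.55 (SD, n = 3) without and 8.67 ± 2.89 (SD, n = 3) with amisulpride. This gave a log2 fold change of -0.94 (SE 0.52, 95% confidence interval -2.08 to 0.21) with an adjusted p of 0.557 in limma. Counts of 7 in amisulpride replicates 2 and 3 stand for about 5 and 4 reads.

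The decoy gene Tnfrsf11b (ENSMUSG00000063727, chr15:54250619-54278484, minus strand) was at 41, 83 and 59 in the untreated libraries and at 32, 50 and 7 in the treated ones. The groups overlapped, with amisulpride replicate 2 at 50 above untreated replicate 1 at 41, and amisulpride replicate 3 was the lowest by far with about 4 reads. Between groups the log2 fold change was -1.32 (SE 0.59, 95% confidence interval -2.63 to -0.02) with an unadjusted p of 0.0470 and an adjusted p of 0.454 in limma. Leaving out amisulpride replicate 3 brought it to -0.54, with an unadjusted p of 0.174 in limma, and the thresholds were also missed without any 1 of the 3 untreated libraries (-1.58, -1.08 and -1.32 without replicates 1, 2 and 3).

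The receptor gene Tnfrsf11a (ENSMUSG00000026321, chr1:105780718-105847981, plus strand) had counts of 61, 16 and 18 in untreated and of 22, 16 and 7 in treated SFs. Untreated replicate 1 stood alone at 61, and the remaining 5 libraries ranged from 7 to 22. The log2 fold change of -0.89 (SE 0.59, adjusted p = 0.627 in limma) went to -0.30 without untreated replicate 1.

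The ratio of Tnfsf11 to Tnfrsf11b, often read as the balance of RANKL and its decoy, was 0.415, 0.313 and 0.186 in the untreated libraries and 0.375, 0.14 and 1 in the treated ones. The treated libraries held both the lowest and the highest ratio. The ratio of 1 in amisulpride replicate 3 rests on about 4 reads for each gene, a number with an exact Poisson 95% interval of 1.09 to 10.24 reads. The mean log2 ratio was -1.73 ± 0.56 (SD, n = 3) in untreated and -1.34 ± 1.34 (SD, n = 3) in treated SFs, a difference of 0.39 that was within the spread of either group and turned to -0.28 without amisulpride replicate 3.

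Nfatc1 (ENSMUSG00000033016, chromosome 18, minus strand), the transcription factor of osteoclast differentiation that is also used by lymphocytes and other cells, was at 93, 65 and 93 in untreated and at 73, 51 and 116 in treated SFs. The treated libraries held both the lowest and the highest value. Its log2 fold change was -0.12 (SE 0.34, 95% confidence interval -0.87 to 0.62) with an adjusted p of 0.920 in limma. The interval leaves room for a change of close to 0.87 in the lower direction on the log2 scale. An antisense gene overlaps Nfatc1, and since the strand setting of the counting was not given in the sources used here, reads of the pair cannot be told apart.

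Oscar (ENSMUSG00000054594, chr7:3609813-3616157, minus strand), which encodes the collagen-binding co-receptor that supports RANK signalling, was at 13, 5 and 6 in untreated and at 2, 5 and 4 in treated libraries. The groups overlapped, and amisulpride replicates 1 and 3 were at or under the floor of 3 reads. It failed the filter and was not tested. The difference of its mean log2 values was -0.90.

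Among the genes for precursor fusion, Dcstamp (ENSMUSG00000022303, chr15:39745932-39760934, plus strand), which encodes a membrane protein needed for osteoclast fusion, was at 63, 12 and 24 in untreated and at 3, 0 and 20 in treated SFs. The groups overlapped, since amisulpride replicate 3 at 20 lay above untreated replicate 2 at 12, while amisulpride replicate 1 held about 3 reads and replicate 2 none. The log2 fold change was -2.65 (SE 0.99, 95% confidence interval -4.82 to -0.48) with an unadjusted p of 0.0208 and an adjusted p of 0.338 in limma. It went to -1.69 with a pseudocount of 5 in place of 1, and the thresholds were missed without untreated replicate 1 (-2.04) and without amisulpride replicate 2 (-1.59).

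Ocstamp (ENSMUSG00000027670, chr2:165393760-165400405, minus strand), a partner of Dcstamp in fusion, was at 63, 22 and 23 in untreated and at 9, 3 and 149 in treated libraries. Amisulpride replicates 1 and 2 were below every untreated library, and amisulpride replicate 3, with about 83 reads, was above all of them. Over all libraries the log2 fold change was -0.85 (SE 1.04, 95% confidence interval -3.13 to 1.43) with an adjusted p of 0.803 in limma. Its value was -2.38 without amisulpride replicate 3 (unadjusted p = 0.00187 and adjusted p = 0.0990 in limma) and 0.24 without amisulpride replicate 2, so single libraries set both its size and its sign.

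Atp6v0d2 (ENSMUSG00000028238, chr4:19876841-19922605, minus strand), a subunit of the proton pump that also takes part in fusion, was at 83, 21 and 38 in untreated and at 32, 15 and 77 in treated SFs. The groups overlapped throughout, and amisulpride replicate 3 was again the highest of its group. The log2 fold change was -0.27 (SE 0.60, 95% confidence interval -1.58 to 1.04) with an adjusted p of 0.897 in limma, and it turned to 0.24 without untreated replicate 1 and to 0.29 without amisulpride replicate 2.

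Acp5 (ENSMUSG00000001348, chr9:22126727-22135711, minus strand), with the 3 promoter windows shown above, encodes tartrate-resistant acid phosphatase, the enzyme stained to count osteoclasts in tissue. It was at 473, 343 and 752 in untreated and at 90, 58 and 336 in treated SFs. Every treated library was below every untreated library, although amisulpride replicate 3 at 336 came close to untreated replicate 2 at 343. Such a separation in the lower direction was found for Acp5 and Ctsk among the 9 genes tested and for 8.66% of all genes. The mean was 523 ± 209 (SD, n = 3) in untreated and 161 ± 152 (SD, n = 3) in treated SFs. The difference of the mean log2 values corresponds to a level 4.08-fold lower in treated SFs.

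The log2 fold change of Acp5 was -2.03 (SE 0.54, 95% confidence interval -3.21 to -0.85) with an unadjusted p of 0.00299 and an adjusted p of 0.165 in limma. The deviations of libraries with the same replicate number from their group means went together, and with the replicate number as a block Acp5 passed the adjusted threshold, with an SE of 0.29, a 95% confidence interval of -2.65 to -1.41 and an adjusted p of 0.00136 in limma. In the blocked fit 1.05% of all genes passed that threshold in the lower direction, and Acp5 was the 1 gene of the 9 to do so, with Dcstamp at an adjusted p of 0.0602. It also passed without the block when amisulpride replicate 3 was left out, at -2.76 and an adjusted p of 0.00346 in limma. An antisense long noncoding RNA gene, 6530413G14Rik, overlaps Acp5. As for Nfatc1, the strand setting of the counting was not given, so reads of the pair cannot be told apart here.

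Ctsk (ENSMUSG00000028111, chr3:95499256-95509362, plus strand) encodes cathepsin K, the protease that degrades bone collagen. Its counts were 524, 506 and 743 in untreated and 482, 424 and 474 in treated SFs. All treated libraries lay below the untreated ones, by a small margin between 482 and 506. Its log2 fold change was -0.34 (SE 0.24, 95% confidence interval -0.88 to 0.20) with an adjusted p of 0.660 in limma. The interval for Ctsk ends short of a log2 fold change of -1, and the difference between the 2 resorption genes was not tested.

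**Figure D2:**
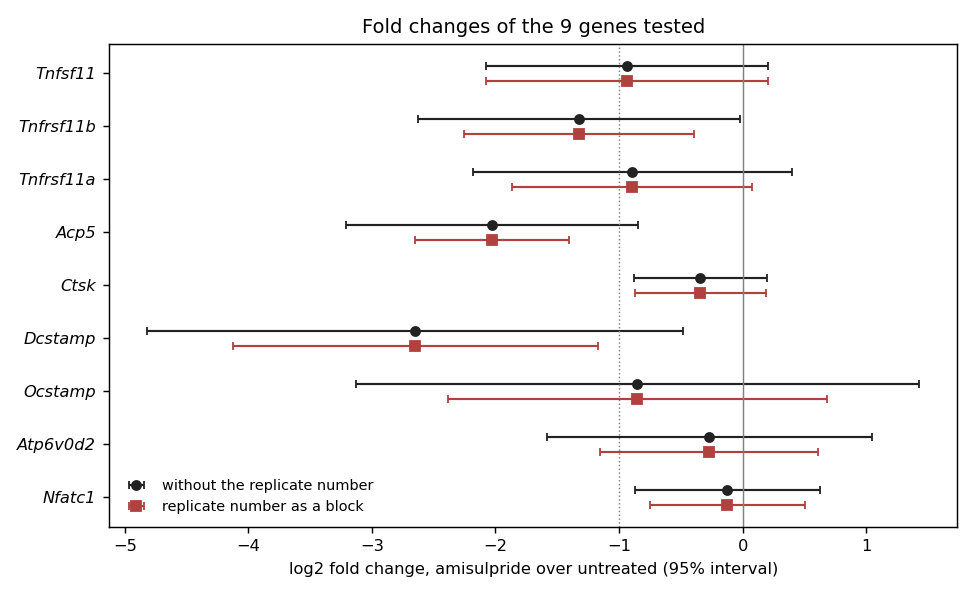
Log2 fold change, amisulpride over untreated, for the 9 genes tested (x axis), with 95% confidence intervals from the fit with and without the replicate number as a block. Acp5, Dcstamp and Tnfrsf11b have intervals below 0 in both fits, and blocking narrows that of Acp5 from -3.21 to -0.85 to -2.65 to -1.41.

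Paired by replicate number, treated values were below untreated values for 10 of 10 genes in replicate 1, for 8 in replicate 2, with Tnfrsf11a and Oscar equal, and for 7 in replicate 3. The 3 genes with higher treated values in replicate 3 were Ocstamp, Atp6v0d2 and Nfatc1. The share of all genes that were lower was not computed by replicate number, so these counts have no background to be read against. Untreated replicate 1 held the highest untreated value of Tnfrsf11a, Dcstamp, Ocstamp, Atp6v0d2 and Oscar, and the limit set by the filter applies here too. For Ocstamp the log2 differences were -2.68, -2.52 and 2.64 in replicates 1, 2 and 3, and for Atp6v0d2 they were -1.35, -0.46 and 1. Dcstamp, at -4, -3.70 and -0.25, and Acp5, at -2.38, -2.54 and -1.16, had their smallest differences in replicate 3. Tnfrsf11b ran the other way, with -0.35, -0.72 and -2.91. Amisulpride replicate 3, the library that stands apart, thus had the highest treated value of all 5 fusion and resorption genes except Ctsk and the lowest or joint lowest treated value of Tnfsf11, Tnfrsf11b and Tnfrsf11a.

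**Figure D3:**
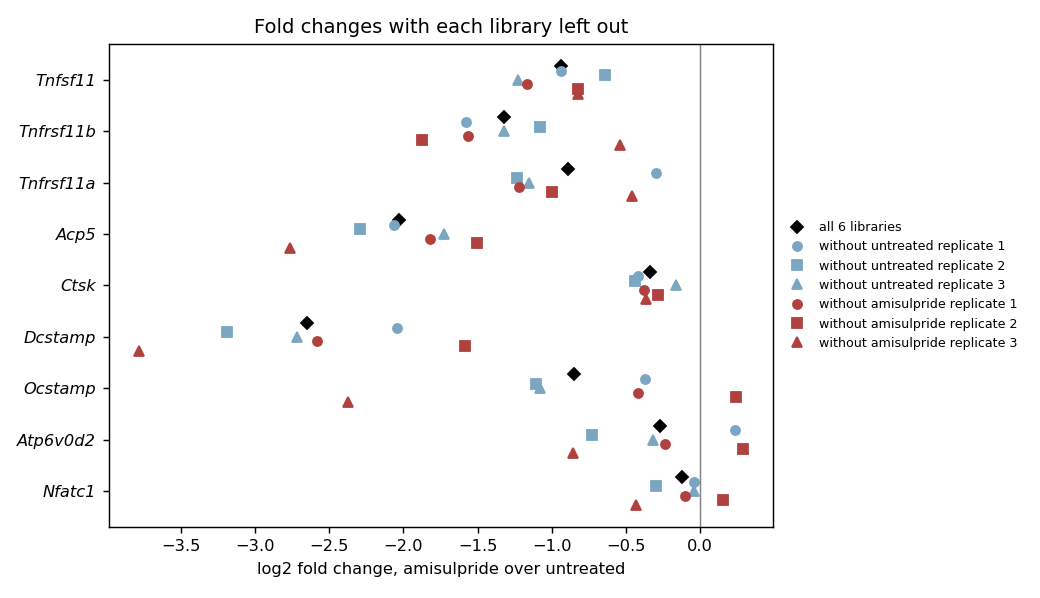
Log2 fold change of each gene tested (x axis) with all 6 libraries and with each library left out in turn. Acp5 stays between -2.76 and -1.50, whereas Ocstamp runs from -2.38 to 0.24 and Tnfrsf11b from -1.87 to -0.54.

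Markers of macrophages and osteoclast precursors were measured beside these genes, since osteoclast genes can come from a few remaining myeloid cells. All 16 markers on the list were above 0 in at least 1 library. Their summed level was 5725, 2902 and 3532 in untreated and 5232, 2755 and 2974 in treated SFs, so the groups overlapped and each treated library was below the untreated library of the same number. Lyz2 was the largest part of the sum, at 3046, 1733 and 2188 in untreated and 3287, 1879 and 1394 in treated SFs. Laptm5 came next, at 1314, 407 and 500 against 865, 324 and 574. Lyz2 was thus higher with treatment in replicates 1 and 2, and Laptm5 in replicate 3. Of the 15 markers tested, 9 had a negative log2 fold change. Among these, Csf1r, Cd14 and Spi1 passed the thresholds of the study, 3 genes against 3.01% of all genes in the lower direction. The other 6 had positive values. Among these, C1qb, a complement gene of tissue macrophages, was at 44, 35 and 38 in untreated and at 53, 50 and 109 in treated SFs, with every treated library above every untreated one (log2 fold change 0.75, adjusted p = 0.479 in limma). C1qc (0.95), Adgre1 (0.83) and Cd68 (0.31) had positive log2 fold changes with overlapping groups.

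The defining leukocyte gene Ptprc, which encodes CD45, was at 38, 12 and 18 in untreated and at 23, 5 and 5 in treated libraries (adjusted p = 0.562 in limma). It was low in every library, and the groups overlapped. Csf1r, the receptor for M-CSF on precursors, was at 114, 93 and 76 in untreated and at 41, 23 and 100 in treated SFs, and its highest treated value was in amisulpride replicate 3, as for Acp5, Dcstamp, Ocstamp and Atp6v0d2. Spi1, which encodes PU.1, was at 180, 99 and 116 against 91, 13 and 57. Of the other macrophage and precursor markers tested, Cd68, C1qb and Tyrobp also had their highest treated value in amisulpride replicate 3. Mrc1 had it in replicate 2, and all the rest, Ptprc, Spi1, Cd14 and Lyz2 among them, had it in replicate 1. In these bulk libraries fewer cells of a type and less RNA per cell cannot be told apart, and the part of myeloid cells in the values of Acp5 and Dcstamp was not tested.

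Neutrophil, lymphocyte, endothelial, chondrocyte, osteoblast and skeletal muscle markers showed no separation of the groups in their summed levels. None of their 7 genes tested passed the thresholds of the study, and none had an unadjusted p under 0.05 in limma. Lymphocyte markers summed to 11 to 33 and endothelial markers to 2 to 17 normalised counts per library, and 6 of the 8 lymphocyte markers were at 0 in every library. Osteoblast markers summed to 5 to 9.

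**Figure D4:**
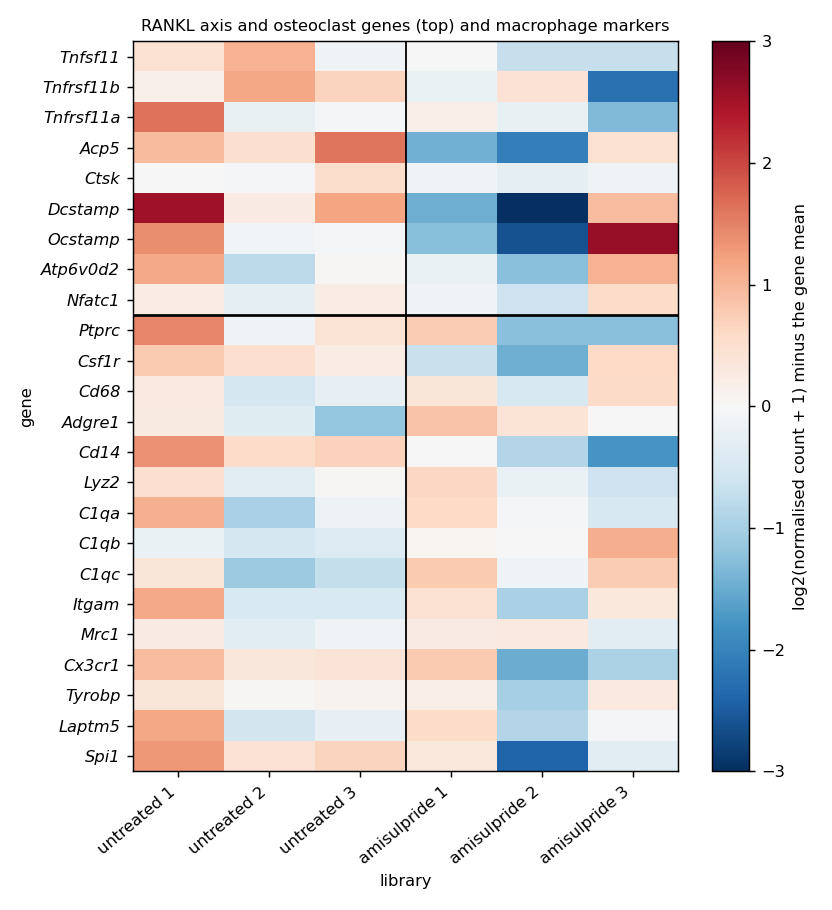
Heat map of log2(normalised count + 1) minus the mean of each gene (colour, from -3 to 3, with values beyond drawn at the end of the scale) for the 9 genes tested (top rows) and the 15 macrophage and osteoclast precursor markers tested (bottom rows) in the 6 libraries (columns). Amisulpride replicate 2 is low for Acp5, Dcstamp, Ocstamp and Spi1, and amisulpride replicate 3 is above the gene mean for Acp5, Dcstamp, Ocstamp, Atp6v0d2 and Csf1r but low for Tnfrsf11b and Cd14.

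Other genes of the osteoclast lineage were lower in part. Of 35 genes on this list 30 were tested, with 18 lower and 12 higher and a median log2 fold change of -0.15. The thresholds of the study were passed by 6, all in the lower direction, against 3.01% of all genes. Slc9b2, a sodium/proton antiporter induced during osteoclast differentiation, was at 105, 53 and 63 in untreated and at 5, 9 and 14 in treated SFs. Its treated values were far below the untreated ones, and it was the 1 gene of the list past the adjusted threshold (log2 fold change -2.89, SE 0.45, adjusted p = 0.0254 in limma). That call was lost in some fits with a library left out, in which the adjusted p in limma ran from 0.0059 to 0.214.

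Prdm1, which encodes BLIMP1, a repressor that relieves the brakes on osteoclast differentiation, was at 43, 45 and 53 against 13, 4 and 16 (log2 fold change -2.17, adjusted p = 0.0982 in limma). Mmp9, a gelatinase of osteoclasts and macrophages, was at 2658, 992 and 2581 against 638, 230 and 1337 (log2 fold change -1.70, adjusted p = 0.265 in limma). Slc9b2 and Prdm1 separated the groups in full, while the treated library of Mmp9 at 1337 overlapped the untreated one at 992. Spi1 (-1.61), Mitf (-1.27, a partner of PU.1) and Csf1r (-1.01) were the other genes past the thresholds of the study, and each missed them in some fits with a library left out, where they ran up to -0.81, -0.86 and -0.53. With the replicate block Slc9b2, Prdm1, Mmp9 and Spi1 passed the adjusted threshold in limma, at 0.00211, 0.0154, 0.00371 and 0.0260. The 6 became 2 when untreated replicate 1 was left out and 3 when amisulpride replicate 2 was. Over all genes 254 of 12328 and 388 of 12335 passed in the lower direction in these fits. Calcr, the calcitonin receptor gene, was at 0 to 3 and Siglec15 at 0 to 4 in the 6 libraries.

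Stromal signals that favour or restrain osteoclasts went both ways. Of 35 genes 25 were tested, with 11 lower and 14 higher and a median of 0.15. In the lower direction 6 passed the thresholds of the study (Spp1, Bmp2, Il11, Ccl2, Tnf and Ccl5), against 3.01% of all genes. Without untreated replicate 2 there were 2 lower and 1 higher of 24 tested, with Bmp2 failing the filter in that fit. Over all 12338 genes of that fit 323 passed in the lower and 396 in the higher direction. With the replicate block 7 passed in the lower direction, against 3.43% of all genes. The gene gained was Il6 (log2 fold change -1.12, unadjusted p = 0.0324 and adjusted p = 0.283 in limma). Spp1, which encodes osteopontin, a matrix protein that anchors osteoclasts to bone, was at 3349, 4630 and 4912 in untreated and at 791, 862 and 1339 in treated SFs. It was the 1 gene of this list past the adjusted threshold (log2 fold change -2.13, SE 0.28, adjusted p = 0.0130 in limma), with an adjusted p between 0.00328 and 0.156 when a library was left out.

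Bmp2, a bone morphogenetic protein, was at 17, 21 and 27 in untreated and at 0, 1 and 2 in treated SFs, with no treated library above the floor of 3 reads, and was at least 5.39-fold lower against the mean floor of the treated libraries. With the replicate block its adjusted p was 0.0142 in limma. The cytokine Il11 was at 27, 25 and 38 against 6, 3 and 16 (log2 fold change -1.97, adjusted p = 0.208 in limma). The chemokines Ccl2 and Ccl5 and the mouse Tnf gene had log2 fold changes of -1.12, -1.13 and -1.17. Of the 6 fits with a library left out, Ccl2 passed the thresholds in 4, Ccl5 in 2 and Tnf in 1. In these fits they ran up to -0.92, -0.68 and -0.93. Spp1 and Il11 passed in all 6, and Bmp2 in the 3 in which it was tested. Csf1, which encodes M-CSF, the survival factor of osteoclast precursors, was at 2968 to 3861 in untreated and 3370 to 3997 in treated SFs (log2 fold change 0.15, SE 0.25), and its groups overlapped.

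Genes through which stromal cells induce RANKL were balanced in direction, with 10 lower and 10 higher of 20 tested and a median of -0.02. Of the 20, 2 passed the thresholds of the study, both lower, against 3.01% of all genes in that direction. With a library left out, 1 to 4 passed in the lower and 0 or 1 in the higher direction. Over all genes 254 to 515 passed in the lower and 309 to 485 in the higher direction in those fits. An unadjusted p under 0.05 in limma was found for 6, against 10.9% of all genes. Ptgs2 (COX-2, which makes the prostaglandins that raise RANKL) was at 719, 411 and 434 in untreated and at 197, 78 and 191 in treated SFs, with the groups apart (log2 fold change -1.81, SE 0.37, adjusted p = 0.0761 in limma). With the replicate block Ptgs2 had an adjusted p of 0.00209 in limma. The parathyroid hormone receptor gene Pth1r (-1.07) was the other gene past the thresholds of the study, which it missed without untreated replicate 1 or amisulpride replicate 3. The prostaglandin E2 receptor gene Ptger4 (-0.94) and the oncostatin M receptor gene Osmr (0.60) did not pass them, and their groups did not overlap.

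RANK signalling intermediates were near the background in direction, with 19 lower and 16 higher of 35 tested and a median of -0.02. Traf5, Tank and Camk4 passed the thresholds of the study, 2 lower and 1 higher, against 3.01% and 2.69% of all genes. The adaptor gene Traf5 was at 39, 37 and 49 against 18, 21 and 16 (log2 fold change -1.14), and Tank, which encodes a TRAF-binding adaptor, had a log2 fold change of -1.0. Camk4, a calcium-dependent kinase, was at 42, 52 and 18 against 58, 106 and 64, with a log2 fold change of 1.08. Traf5 stayed past the thresholds with any library left out, Camk4 missed them without untreated replicate 3 or amisulpride replicate 2 (0.64 to 1.38 over all 6), and Tank, at -1.13 to -0.92, missed them in all but those without untreated replicate 2 or amisulpride replicate 1. Pik3r1, the regulatory subunit of PI3-kinase, had 0.96 and did not pass. None of the 35 passed the adjusted threshold in limma with or without the block, and 6 had an unadjusted p under 0.05 without it, against 10.9% of all genes.

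Close relatives of the 10 genes gave no shared direction, with 7 lower and 6 higher of 13 tested and a median of -0.02. Cd40, another receptor of the TNF family, was the 1 gene past the thresholds of the study, at 13, 6 and 4 in untreated and 32, 27 and 9 in treated libraries (log2 fold change 1.41, adjusted p = 0.438 in limma). The groups overlapped between 9 and 13, and the thresholds were missed without untreated replicate 2 or 3. Cd40 was tested in 3 of the 6 fits with a library left out and failed the filter in the rest. Over all genes 2.69% passed the thresholds in the higher direction. Atp6v0d1, the broadly expressed relative of Atp6v0d2, had a log2 fold change of 0.02 (SE 0.28). Nfat5 (-0.82), the cathepsin gene Ctss (-0.84) and the TNF receptor gene Tnfrsf1b (0.63) did not pass.

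Of the 14 osteoblast genes 6 were tested, with 4 lower and a median of -0.77. Against 3.01% of all genes, 3 passed the thresholds of the study in the lower direction. These were Spp1, Pth1r and Alpl, and the first 2 are also on the lists above. Alpl, the alkaline phosphatase of mineralising cells, was at 63, 21 and 28 in untreated and at 8, 4 and 5 in treated SFs, with the groups apart (log2 fold change -2.41, adjusted p = 0.0925 in limma and 0.0148 with the replicate block). Col1a1, the collagen gene that fibroblasts share with osteoblasts, had 0.49 and did not pass. The count of 3 was 1 of 5 genes tested without untreated replicate 1, where Alpl failed the filter and Pth1r missed the thresholds. Over all 12328 genes of that fit 254 passed in the lower direction. Alpl was tested in 3 of the 6 fits with a library left out and passed the thresholds in all 3.

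**Figure D5:**
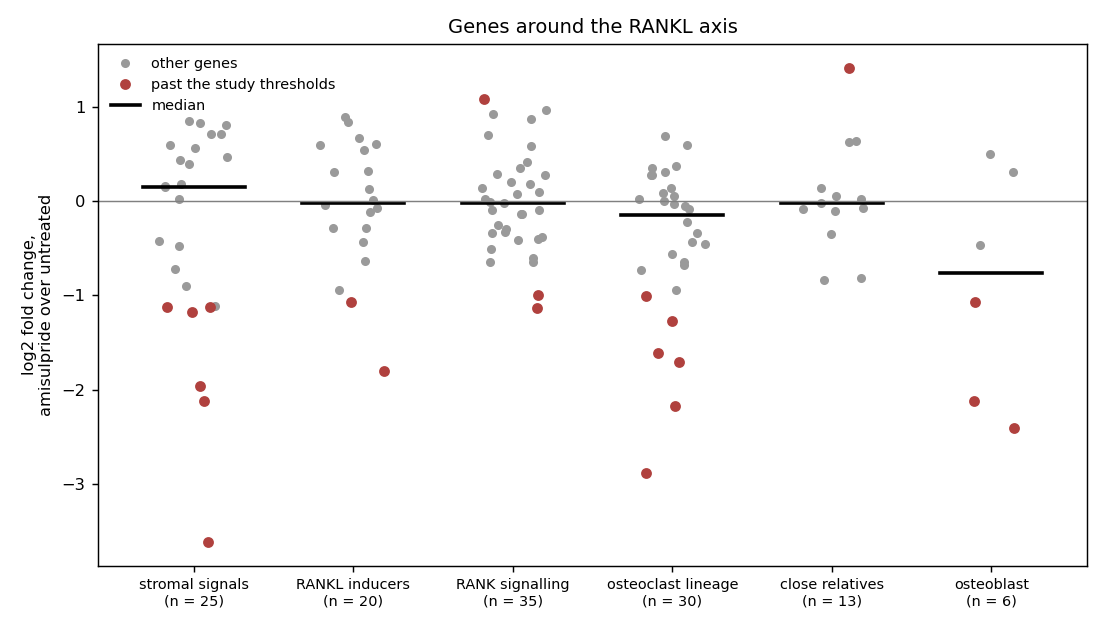
Log2 fold change, amisulpride over untreated (y axis), of every tested gene of the 6 surrounding lists (x axis), with red points past the thresholds of the study and bars at the medians. The medians lie between -0.15 and 0.15 except that of the 6 osteoblast genes at -0.77, and the red points are below 0 apart from Camk4 and Cd40.

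The protein-coding genes whose pattern over the 6 libraries was most like that of each gene were found by the root mean square difference of log2 values after centring each gene on its mean. For Tnfsf11 these were Zfp13, Pcyt2, Mrm2, Myrf and Il15ra, with differences of 0.18, 0.18, 0.19, 0.20 and 0.22. For Acp5 they were Il11 (0.24), Pla2g7 (0.25) and Uchl1 (0.33). Tnfrsf11b was closest to Mau2 (0.12), Sirt3 (0.25) and F11r (0.27), and Tnfrsf11a to Ube2s (0.13), Myo1g (0.25) and Itga5 (0.27).

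Ctsk and Nfatc1, which varied least, had the smallest differences. These were to Oprm1, Inppl1 and Rufy1 for Ctsk (0.07 to 0.08) and to Hacd3, Msi1 and Samd4b for Nfatc1 (0.06 to 0.08). Atp6v0d2 was closest to Cfl1 (0.25), Gps2 (0.31) and Rtn4ip1 (0.31). Differences were larger for Dcstamp, with Sema4d (0.52) and Tmem26 (0.60), and for Ocstamp, with Mt3 (0.71) and Gas2l3 (0.74). The measure is not scaled to the spread of a gene, so it is larger for genes that vary more. The root mean square deviation from the gene's own mean was 1.95 for Dcstamp and 1.70 for Ocstamp. It was 0.38 for Nfatc1 and 0.25 for Ctsk. Among the 9 genes tested, the difference was smallest between Ctsk and Nfatc1 (0.36) and largest between Tnfrsf11b and Ocstamp (2.5). The value of 0.36 was above the deviation of Ctsk from its own mean, so it reflects low spread and not a shared pattern. Ligand and decoy differed by 0.86, and Acp5 was closest to Dcstamp (0.91). These are descriptions over 6 libraries, in which genes share the depth and replicate number of each library.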

How the data were processed

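RNA from 6 SF cultures was made into 3′ end libraries (QuantSeq, Ion Proton). The authors aligned reads to mm10 with TopHat2 and Bowtie2, counted them per gene with GenomicRanges and normalised them with DESeq through metaseqr, with versions not given in the sources used here. The deposited values are a score, counts scaled by the authors and rounded, called normalised counts here. The authors' columns of fold changes and p-values were not used, nor were 12 further columns of values per library. The labels give the controls no treatment, where the methods name vehicle.

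limma 3.58.1 (R 4.3.3, variance trend, two-sided) was run on log2(normalised count + 1) for 12614 genes with at least 10 in at least 3 libraries, with Benjamini-Hochberg adjustment over all of them. Fold changes on this scale understate those of low genes. Some list genes, such as Slc9b2, Prdm1, Il11, Bmp2 and Alpl, would not have met the filter on their treated libraries alone. The counts of lower genes on the lists are partly set by this. The methods speak of biological replicates without describing separate cultures, so p-values measure the spread between these libraries. The replicate numbers were checked for pairing: deviations from group means correlated at 0.23, 0.24 and 0.20 for equal numbers and at -0.15 to -0.08 for unequal ones. The blocked fit is given where it changes a call. Approximate reads come from the steps between low values. The fit and the step estimate were tested on simulated data.

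The 10 genes and the lists were chosen with earlier results of these data known. Named genes were the 10 genes, the genes of each list past the thresholds of the study or, with fewer than 4, those of lowest p up to 4, the 3 nearest genes in pattern (5 for Tnfsf11), and cell type markers. For Dcstamp and Ocstamp 1 of these neighbours is not reported here. Csf1, Atp6v0d1, Calcr and Siglec15 were named after their values were seen. Promoter windows came from RefSeq and gene positions from the deposited table (mm10).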

Additional observations from a re-analysis of the deposited data

How the results depend on the processing

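Acp5 stayed lower and past the study's thresholds in 16 of 16 alternatives in limma, from -2.76 to -1.50, with adjusted p between 0.00136 and 0.559. Tnfsf11, Tnfrsf11a and Ctsk were lower under every alternative that gave a value and never passed. Tnfsf11 ran from -1.23 to -0.64, and neither it nor Tnfrsf11a was tested with a filter of 20. Tnfrsf11b missed the thresholds with weights per library (-0.94) and with no variance trend (-1.32) and ran from -1.87 to -0.54 with a library left out. Dcstamp ran from -3.78 to -1.59. Ocstamp passed with weights per library (-1.59) and ran from -2.38 to 0.24, reversed at 0.24 without amisulpride replicate 2. Atp6v0d2, which ran down to -0.86, reversed without untreated replicate 1 (0.24) and without amisulpride replicate 2 (0.29), and Nfatc1 without amisulpride replicate 2 (0.16), with a lowest value of -0.43 when a library was left out. The cause was not tested.

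The number of genes at an adjusted p under 0.05 in limma was 36. It was 57 with a pseudocount of 5, 57 with no filter, 66 with quantile normalisation, 64 with upper quartile scaling, 195 with weights per library and 263 with the replicate block. It ran from 0 to 120 with a library left out, with 0 without untreated replicate 2 or 3 (1083 and 911 genes at an unadjusted p under 0.05) and 120 without amisulpride replicate 3. The 719 genes past the thresholds of the study became 1313 with no filter. Of the 9 genes tested, the replicate block changed the call of Acp5 alone.

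The median of the stromal signals went from 0.15 to between -0.025 and 0.28 with a library left out. That of the relatives was 0.11 with weights per library. That of the osteoblast genes was -0.40 with no filter and -0.86 to -0.36 with a library left out. Tnfsf11, Oscar and Dcstamp had about 0 to 13 reads in each treated library, which limits the precision of their values.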
